A study of Mus musculus with 21 samples.

Results

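The 10 genes described here make, conjugate and carry bile acids or sense them in the liver: *Cyp7a1*, *Cyp8b1*, *Cyp27a1* and *Cyp7b1* (synthesis), *Slc27a5* and *Baat* (conjugation), *Slc10a1* and *Abcb11* (transport), and *Nr1h4* and *Nr0b2* (nuclear receptors). They were taken as the rows of the gene count table whose Ensembl identifier carries one of these symbols in GENCODE M21, an annotation of mouse genome build GRCm38. All 10 were found among the 46078 gene identifiers of the table, and all 10 were among the 14370 genes that passed a filter on low counts.

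The livers came from mice without *Cse* (symbol *Cth*), whose product cystathionine γ-lyase makes cysteine, and from comparison mice, and the study asked how tissues respond to a lack of cysteine from both the diet and their own synthesis. The knockout, labelled cse and called KO here, was on a mixed 129/C57BL/6 background. The comparison genotype is labelled WT, but the study's text describes its comparison mice as heterozygous (*Cse*+/-), so WT is used here only as the name in the labels. The diets were a defined amino acid diet (CTR), the same diet without cysteine (noCys) and the same diet without tryptophan (noTrp), and each depleted diet held more of the amino acids that were kept. The 6 groups were KO noCys with 3 libraries (numbered 1, 3 and 4), WT noCys with 4, KO CTR with 4, WT CTR with 3, KO noTrp with 5 and WT noTrp with 2. All mice were at least 9 weeks old when the diets began, and per the study's methods the mice sequenced were male and all groups, CTR included, were calorie restricted. The titles number the libraries as biological replicates, and nothing in the labels ties them to litters or cages.

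Bile acids are made from cholesterol in hepatocytes. In the classical pathway the sterol ring is modified first, and in the alternative pathway the side chain is oxidized first. The product is joined to coenzyme A and then to an amino acid, which in mice is mostly taurine, a product of cysteine, and the conjugate is pumped into bile, taken up again in the gut and returned to the liver. Bile acids that return activate the receptor FXR (gene *Nr1h4*), and FXR induces *Nr0b2* (SHP), a repressor of the synthesis genes, so that the pathway limits itself.

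Promoter sequence of the mouse reference was available for 6 of the 10 genes, in 7 entries because *Slc10a1* had 2 start sites. 4 promoters are shown, from genes that differed in how they responded below: *Cyp8b1*, which fell in KO mice without cysteine, *Cyp27a1*, which was called in 1 comparison, and *Abcb11* and *Nr0b2*, which were called in none. Each line gives the 250 bases before the start site, 5′ to 3′ on the gene's strand, from RefSeq on GRCm38.p6. Capitals mark the letters of a motif found on either strand. The *Cyp8b1* promoter lies at chr9:121916306-121916555 (minus strand), that of *Cyp27a1* at chr1:74713285-74713534 (plus strand), that of *Abcb11* at chr2:69342617-69342866 (minus strand) and that of *Nr0b2* at chr4:133553126-133553375 (plus strand).
Cyp8b1: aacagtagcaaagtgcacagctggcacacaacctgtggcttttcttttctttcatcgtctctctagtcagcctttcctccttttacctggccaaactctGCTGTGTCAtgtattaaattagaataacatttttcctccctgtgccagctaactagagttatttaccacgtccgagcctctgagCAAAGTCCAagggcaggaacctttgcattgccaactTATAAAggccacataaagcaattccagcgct
Cyp27a1: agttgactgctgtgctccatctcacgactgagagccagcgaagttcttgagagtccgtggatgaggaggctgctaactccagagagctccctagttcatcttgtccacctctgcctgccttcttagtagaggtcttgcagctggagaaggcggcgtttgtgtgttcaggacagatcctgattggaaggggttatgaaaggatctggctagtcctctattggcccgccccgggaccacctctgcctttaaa
Abcb11: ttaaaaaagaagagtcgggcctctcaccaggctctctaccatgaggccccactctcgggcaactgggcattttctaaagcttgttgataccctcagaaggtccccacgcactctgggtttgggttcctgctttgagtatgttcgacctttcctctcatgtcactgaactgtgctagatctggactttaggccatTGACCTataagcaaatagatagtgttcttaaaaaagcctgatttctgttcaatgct
Nr0b2: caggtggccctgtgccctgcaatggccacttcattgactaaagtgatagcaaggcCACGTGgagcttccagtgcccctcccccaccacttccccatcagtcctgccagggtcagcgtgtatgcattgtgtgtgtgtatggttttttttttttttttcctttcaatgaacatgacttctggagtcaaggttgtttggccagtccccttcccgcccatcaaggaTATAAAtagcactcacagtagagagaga

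In the *Cyp8b1* promoter the capitals mark, from left to right, the NRF2-type letters TGACNNNGC on the opposite strand with its first base at -151 from the start site, the HNF4-type letters CAAAGTCCA at -67, and a TATA box, TATAAA, at -31. CAAAGTCCA was present in 0.387% of the 32536 promoters of this length in the table, TGACNNNGC in 10.2% and TATAAA in 12.3%, each counted on both strands. The *Abcb11* promoter held the nuclear receptor core AGGTCA on the opposite strand at -56, which 14.04% of promoters held. The *Nr0b2* promoter held an E box, CACGTG, at -195 (6.04% of promoters) and a TATA box at -28. The *Cyp27a1* window held none of the 10 motifs searched. The other 5 motifs, which the 4 windows shown did not hold, were CAAGGTCA (LRH-1 core, in 1.33% of promoters), TTATGTAA (D box, in 0.811%), TGATGCAA (ATF4 composite, in 0.762%) and 2 repeats of AGGTCA, the inverted repeat with any 1 base between the copies (in 0.00615%) and the direct repeat with an A between them (in 0.0154%). AGGTCA also lies within each repeat and within CAAGGTCA. These matches describe letters in a window and are no evidence that a factor binds there.

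The 21 libraries held 8889951 to 27230852 counts each. Mitochondrial genes took 3.41% to 7.67% of them: 4.49% to 7.51% on CTR, 3.77% to 7.67% on noCys and 3.41% to 4.79% on noTrp. No gene took more than 6.64%. *Alb* was the top gene in every library but WT CTR 3 and KO noCys 3. The scaling factor (TMM) of WT CTR 3, 0.883, was the lowest of all. The knockout was visible in every KO library: *Cth* lay between 6.34 and 14.99 CPM (counts scaled by TMM to a common library size) in the 12 KO libraries and between 107.8 and 451.7 in the 9 WT libraries. The hepatocyte markers *Alb* and *Ttr* were abundant in all libraries, with *Alb* at 21622 CPM or more. Whether the genotype or the diet changed the number of hepatocytes or the RNA per hepatocyte cannot be told apart in bulk RNA.

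Counts per library were ample for the 10 genes. The smallest was 53 reads, for *Nr0b2* in WT CTR 1, and for the other genes every library held at least 267. Scaled to the length of their exons, and taken as the median over all 21 libraries, *Slc27a5* had the highest level (329 CPM per kb), followed by *Slc10a1* (241), *Cyp27a1* (194), *Cyp8b1* (145), *Baat* (107), *Cyp7b1* (105), *Nr1h4* (64.0), *Nr0b2* (48.2), *Abcb11* (46.4) and *Cyp7a1* (24.8). The order differed between groups: by group means *Slc10a1* (225 CPM per kb) was above *Slc27a5* (186) in KO noCys, and *Cyp8b1* came next after *Slc27a5* in WT CTR (273) and KO CTR (291). The genes also differed in how far they ranged over the libraries. The ratio of the highest to the lowest CPM was 18.02 for *Nr0b2*, 14.4 for *Cyp8b1* and 8.78 for *Cyp7a1*, but 1.93 for *Cyp27a1*, 1.75 for *Abcb11* and 1.59 for *Nr1h4*. The *Nr0b2* ratio rests on the library with 53 reads, WT CTR 1.

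When dietary cysteine was removed, 5 of the 10 genes were lower in KO than in WT livers: *Slc27a5*, *Cyp7a1*, *Cyp8b1*, *Baat* and *Cyp27a1*. They include the first enzyme of the classical pathway and both enzymes of conjugation. No member was called higher. Of all 14370 genes tested, 28.2% were called in this comparison (called means an adjusted p under 0.05 from edgeR's quasi-likelihood F-test with Benjamini-Hochberg adjustment), 13.4% lower and 14.8% higher. Without KO noCys 3 the share of all genes called was 16.5% here, 9.65% in KO noCys against KO CTR and 3.99% in KO noCys against KO noTrp. The log2 fold changes of the members ran from -1.42 to 0.25, with a median of -0.45 against -0.02 for all genes, and 9 of 10 lay below 0. In 4 members every KO noCys library lay below every WT noCys library, as it did in 18.1% of all genes. Scaling by library totals alone raised the median of all genes to 0.20 and that of the members to -0.24, with 7 of 10 below 0.

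**Figure D1:**
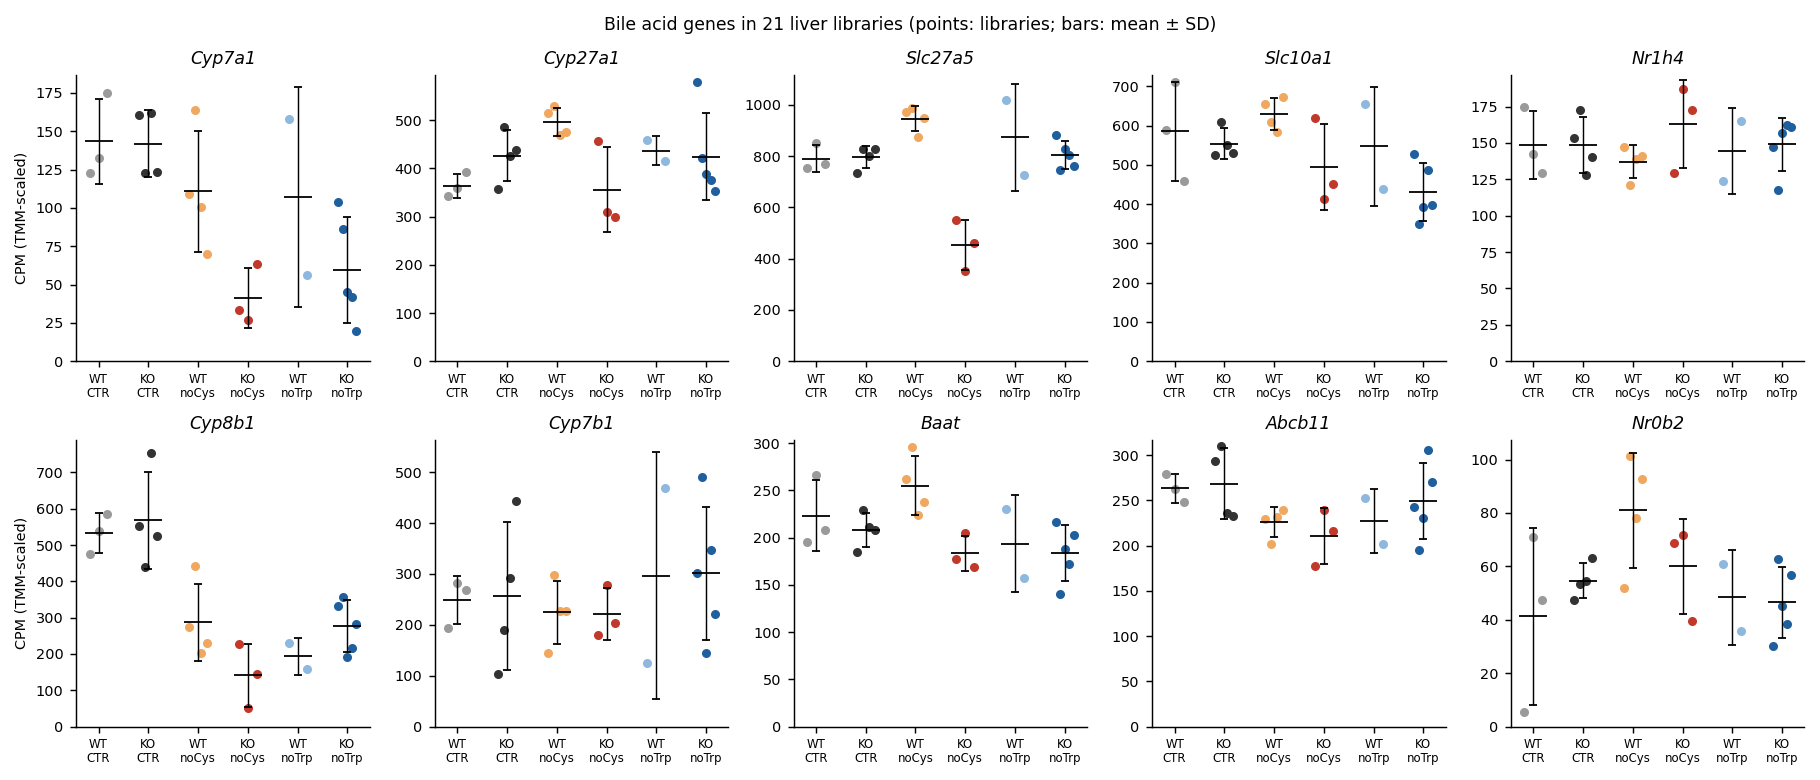
Expression of the 10 genes in each of the 21 libraries by genotype and diet. The y axis is CPM scaled by TMM from 0, points are libraries, and the horizontal and vertical bars are the group mean and SD (KO n = 4, 3 and 5 and WT n = 3, 4 and 2 on CTR, noCys and noTrp). *Slc27a5* in KO noCys, at 352 to 549 CPM, lies below all other libraries, *Cyp8b1* is highest in both CTR groups, and *Cyp7b1* overlaps in all groups.

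In KO mice the cysteine-free diet lowered 3 members relative to the control diet, *Cyp8b1*, *Cyp7a1* and *Slc27a5*, where 20.2% of all genes were called and 9.59% were called lower. In each of these 3 genes every KO noCys library lay below every KO CTR library, which held for 13.2% of all genes. The other 7 members had log2 fold changes between -0.35 and 0.14. Both KO comparisons use the KO noCys libraries, so they are not independent of each other.

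On the control diet no member passed the test between KO and WT livers (0 called by edgeR's test, 0 at an unadjusted p under 0.05, and 0 by DESeq2), where 0.32% of all genes were called, and the fold changes lay between -0.10 and 0.39 (log2). Without tryptophan KO and WT likewise gave 0 called, 0 at an unadjusted p under 0.05 and 0 by DESeq2, where 0.195% of all genes were called. This comparison has 2 WT noTrp libraries. There *Cyp7a1* gave -0.85 (SE 0.45, adjusted p = 0.626), which became 0.08 without WT noTrp 1 and -1.41 without WT noTrp 2.

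**Figure D2:**
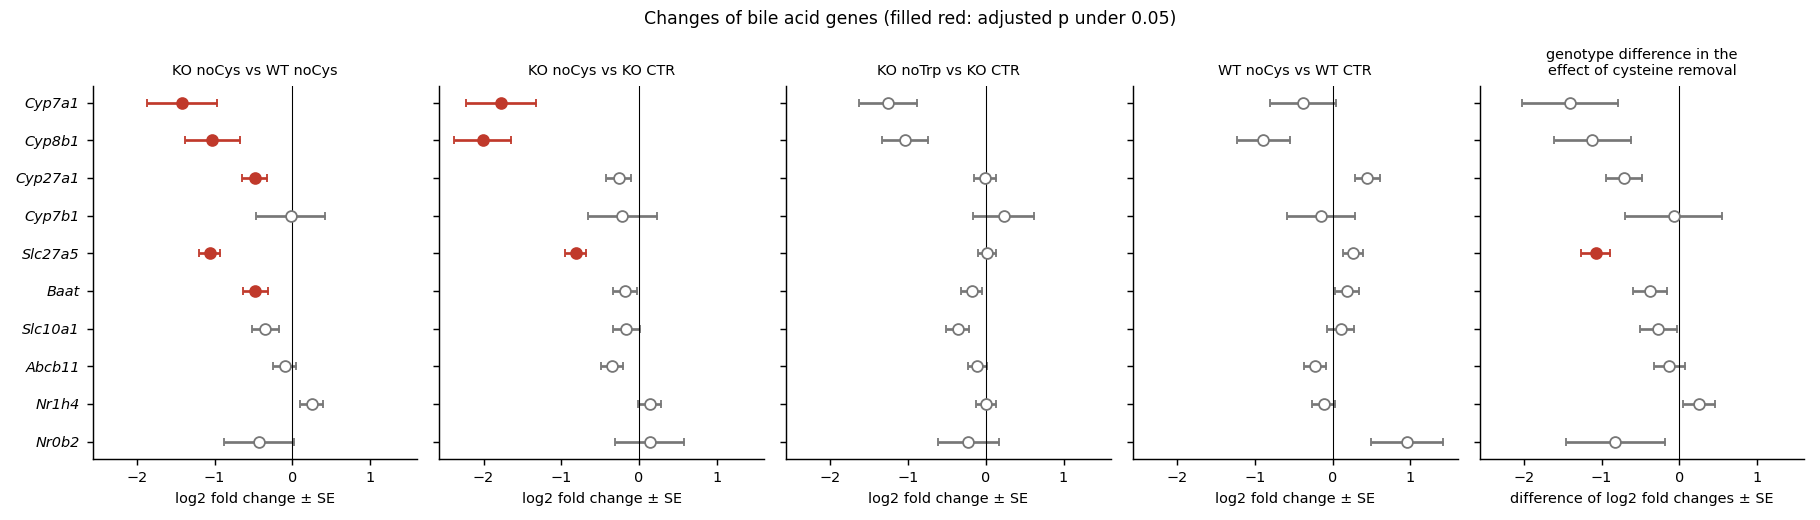
Log2 fold changes of the 10 genes, with SE, in 4 comparisons between groups and, at the right, the difference between the cysteine effects in KO and WT. Filled red points passed an adjusted p of 0.05. The first panel has 5 filled points, the second 3, the next 2 none and the last 1, *Slc27a5* (-1.08).

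*Cyp7a1* (chr4:6265612-6275633, minus strand) encodes cholesterol 7α-hydroxylase, the rate-limiting enzyme of the classical pathway. In KO noCys its level was 33.3, 27.02 and 63.6 CPM. In WT noCys it was 109.1, 163.9, 100.4 and 69.6 CPM, and in KO CTR it was 160.4, 122.6, 161.6 and 123.3 CPM. All KO noCys libraries lay below all libraries of both other groups, with the highest of them, replicate 4, next to the lowest WT noCys library.

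*Cyp7a1* was thus lower in KO noCys (mean 41.3 ± 19.5 CPM, SD, n = 3) than in WT noCys (110.8 ± 39.3, n = 4), the log2 fold change being -1.42 (SE 0.45, adjusted p = 0.0229). Against KO CTR (142.0 ± 22.0, n = 4) the fold change was -1.78 (SE 0.45, adjusted p = 0.00898). The call against WT noCys was lost without WT noCys 2 (-1.17, adjusted p = 0.0705), KO noCys 1 (-1.29, adjusted p = 0.0748) or KO noCys 3 (-1.18, adjusted p = 0.123), and that against KO CTR was lost without KO noCys 3 (-1.54, adjusted p = 0.0674).

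Without tryptophan *Cyp7a1* was spread widely. KO noTrp gave 103.5, 86.4, 45.3, 41.6 and 19.9 CPM. WT noTrp gave 157.9 and 56.2 CPM and WT CTR 122.7, 132.7 and 174.9 CPM. The lowest value of all 21 libraries was in KO noTrp, not in KO noCys, and all 5 KO noTrp libraries lay below all 4 KO CTR libraries. The fold change of KO noTrp (59.4 ± 34.5 CPM) against KO CTR was -1.26 (SE 0.38), and its adjusted p of 0.0853 missed the threshold. KO noCys and KO noTrp overlapped and differed by -0.52 (SE 0.42, adjusted p = 0.439).

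*Cyp8b1* (chr9:121914356-121916305, minus strand), the sterol 12α-hydroxylase that directs synthesis towards cholic acid, had its highest values on the control diet. In KO CTR it lay at 552, 439, 755 and 526 CPM and in WT CTR at 476.5, 538 and 585 CPM. In KO noCys it lay at 227, 52.3 and 144 CPM. KO noTrp gave 333, 358, 191, 216 and 283 CPM. Every KO library on a depleted diet was below every KO CTR library, and KO noCys 3 was the lowest of all 21.

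Relative to KO CTR (568 ± 133 CPM, SD, n = 4), *Cyp8b1* fell in KO noCys (141 ± 87.3, n = 3) to 0.248 times its level, or -2.01 on the log2 scale (SE 0.37, adjusted p = 0.000736). That call held without each of the 7 libraries in turn. In KO noTrp the change was -1.04 (SE 0.30, adjusted p = 0.0758). The same comparison passed in DESeq2 (adjusted p = 0.0365).

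In WT mice *Cyp8b1* was at 274, 441.0, 204 and 230.1 CPM without cysteine and at 229 and 158 CPM without tryptophan. All 6 of these libraries lay below the 3 WT CTR libraries. Neither difference passed the threshold: -0.89 (SE 0.34, adjusted p = 0.235) without cysteine and -1.46 (SE 0.43, adjusted p = 0.0706) without tryptophan, of which DESeq2 called the second (adjusted p = 0.0242).

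Between genotypes on the cysteine-free diet *Cyp8b1* differed by -1.03 (SE 0.35, adjusted p = 0.0354), but the groups overlapped, since KO noCys 1 (227 CPM) was above WT noCys 3 (204 CPM). The call was lost without WT noCys 1 (-1.05, adjusted p = 0.0532), WT noCys 2 (-0.74, adjusted p = 0.13), KO noCys 3 (-0.63, adjusted p = 0.172) or KO noCys 4 (-1.05, adjusted p = 0.0837). It was also lost when only the compared groups were fitted (adjusted p = 0.0802).

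**Figure D3:**
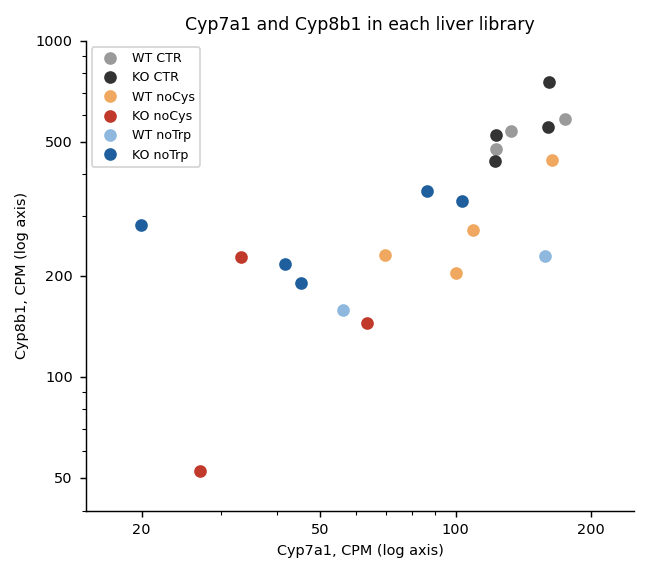
*Cyp7a1* (x axis, CPM, log scale) against *Cyp8b1* (y axis, CPM, log scale) in each of the 21 libraries, coloured by group. The 7 CTR libraries sit together at the upper right, with *Cyp7a1* at 122.6 CPM or more and *Cyp8b1* at 439 CPM or more, together with WT noCys 2 (163.9 and 441.0 CPM). The other libraries of the depleted diets spread to lower values, with KO noCys 3 lowest in *Cyp8b1* (52.3 CPM) and KO noTrp 5 lowest in *Cyp7a1* (19.9 CPM).

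The point estimates for the removal of cysteine in KO and WT were -1.78 and -0.38 for *Cyp7a1* and -2.01 and -0.89 for *Cyp8b1*. The tests of the difference between KO and WT did not pass, at -1.40 (SE 0.62, adjusted p = 0.173) for *Cyp7a1* and -1.12 (SE 0.49, adjusted p = 0.175) for *Cyp8b1*. The test passed for *Cyp7a1* when only the compared groups were fitted (-1.40, adjusted p = 0.0413) and for *Cyp8b1* without KO noCys 1 (-1.64, adjusted p = 0.0350). KO noCys against KO noTrp gave -0.97 (SE 0.34, adjusted p = 0.0627) for *Cyp8b1*. DESeq2 called it (adjusted p = 0.0397), as did the fit without KO noCys 1 (-1.49, adjusted p = 0.0102), and without KO noCys 3 it was -0.57 (adjusted p = 0.293).

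Of the enzymes of the alternative pathway, *Cyp27a1* passed the test between KO noCys and WT noCys and *Cyp7b1* did not. *Cyp27a1* (chr1:74713574-74737892, plus strand), the mitochondrial sterol 27-hydroxylase, was at 457, 309 and 300.1 CPM in KO noCys. WT noCys gave 514, 529, 468 and 475 CPM and WT CTR 343, 358 and 391 CPM. The WT noCys libraries were above all libraries of both other groups, and KO noCys spanned the WT CTR values. *Cyp27a1* was thus -0.48 (SE 0.16, adjusted p = 0.0305) in KO noCys relative to WT noCys. This call was lost with library totals (-0.29, adjusted p = 0.119) and without WT noCys 1, WT noCys 2, KO noCys 3 or KO noCys 4, where the fold change lay between -0.47 and -0.37. Within WT the cysteine-free diet gave 0.45 (SE 0.16, adjusted p = 0.205), and within KO -0.26 (SE 0.16, adjusted p = 0.266), which without KO noCys 1 became -0.48 and passed (adjusted p = 0.0399). The difference between those effects was -0.71 (SE 0.23) and its adjusted p of 0.0627 missed the threshold, while DESeq2 called it. KO noCys against KO noTrp was called for *Cyp27a1* without KO noCys 1 (-0.48, adjusted p = 0.0466).

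*Cyp7b1* (chr3:18071950-18243338, minus strand), the oxysterol 7α-hydroxylase, varied widely inside groups. It ranged from 103.0 to 443 CPM among the 4 KO CTR libraries, from 145 to 491 CPM in KO noTrp and from 125 to 468 CPM in WT noTrp. KO noCys (180.0, 278 and 204 CPM) lay inside the range of WT noCys (145, 297, 228 and 227 CPM). The difference between KO noCys and WT noCys was -0.02 (SE 0.44, adjusted p = 0.975). At this SE a difference of the size seen in *Cyp27a1* was not detectable. The gene *Gm23686* overlaps *Cyp7b1*, and the strand setting of the counting is not stated.

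*Slc27a5* (chr7:12988346-12998192, minus strand) encodes bile acyl-CoA synthetase, which joins bile acids to coenzyme A before conjugation. Its levels were 549, 352 and 459 CPM in KO noCys. WT noCys gave 969.9, 989, 876 and 949.6 CPM and KO CTR 735, 827, 802 and 826 CPM. KO noTrp gave 884, 746.5, 826, 802.5 and 763 CPM. The 3 KO noCys libraries were the lowest of all 21, and the 4 WT noCys libraries were above all 3 WT CTR libraries (751.5, 850.1 and 768.5 CPM).

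*Slc27a5* fell in KO noCys (453 ± 98.6 CPM, SD, n = 3) to 0.479 times the level of WT noCys (946 ± 49.6, n = 4), or -1.06 on the log2 scale (SE 0.13, adjusted p = 1.25e-05). Against KO CTR (797 ± 43.1, n = 4) the change was -0.82 (SE 0.13, adjusted p = 0.000257) and against KO noTrp (804 ± 54.3, n = 5) it was -0.83 (SE 0.13, adjusted p = 0.000336). KO noTrp against KO CTR gave 0.01 (SE 0.11, adjusted p = 0.971). *Slc27a5* was the only member called between the cysteine-free and tryptophan-free diets in KO livers, where 13.9% of all genes were called, 6.75% were called lower and 9.55% had every KO noCys library below every KO noTrp library.

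The fall of *Slc27a5* also depended on genotype. Removing cysteine gave -0.82 in KO and 0.26 (SE 0.13, adjusted p = 0.386) in WT, and the difference between these effects was -1.08 (SE 0.19, adjusted p = 0.00198). Of the 10 members it was the only one to pass this test, which 7.44% of all genes passed, with 3.88% of all genes called lower. The genotype effect without cysteine also differed from that without tryptophan (-0.12, SE 0.14) by -0.94 (SE 0.20, adjusted p = 0.00693). Again *Slc27a5* was the only member called, where 6.35% of all genes were called and 3.03% called lower. With library totals 81.4% of the calls over all genes in that contrast were higher, in place of 52.3%. Every one of its 5 calls held without each library in turn, and in all 6 other settings. The fold change against WT noCys stayed between -1.22 and -0.91 as libraries were left out.

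**Figure D4:**
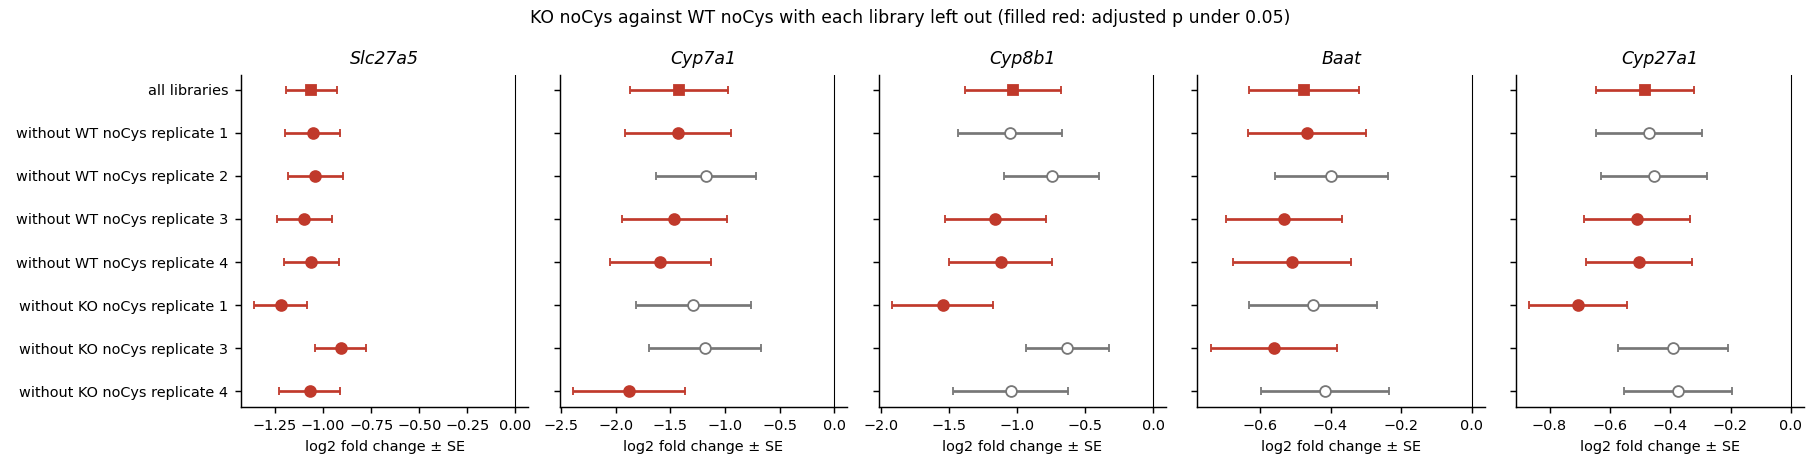
Log2 fold change (x axis, with SE, scaled separately in each panel) of the 5 members called in KO noCys against WT noCys, refitted without each of the 7 libraries of the comparison. Filled red points passed an adjusted p of 0.05. *Slc27a5* stayed filled in all 7 refits, *Cyp7a1* and *Baat* in 4, and *Cyp8b1* and *Cyp27a1* in 3.

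*Baat* (chr4:49489422-49506557, minus strand), the acyltransferase that then joins the bile acid to taurine or glycine, moved less. It was at 177, 204.5 and 168 CPM in KO noCys. WT noCys gave 262, 296, 224 and 237 CPM, and KO CTR gave 185, 229, 211 and 208 CPM. The KO noCys libraries were below all WT noCys libraries but overlapped KO CTR. The fold change was -0.47 (SE 0.16, adjusted p = 0.0279) against WT noCys and -0.18 (SE 0.15, adjusted p = 0.436) against KO CTR. The first of these was lost without WT noCys 2 (-0.40), KO noCys 1 (-0.45) or KO noCys 4 (-0.42) and with library totals (-0.26, adjusted p = 0.215).

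Neither main transporter passed the test. *Slc10a1* (chr12:80953183-80968705, minus strand) encodes NTCP, which takes up bile acids from blood. It was at 618, 413 and 451.5 CPM in KO noCys and at 655, 608, 583.5 and 672 CPM in WT noCys. KO noCys 1 lay within the WT noCys range and the other KO noCys libraries below it, with a fold change of -0.35 (SE 0.17, adjusted p = 0.137) that passed only when KO noCys 1 was left out (-0.54). *Abcb11* (chr2:69238282-69342616, minus strand) encodes the bile salt export pump. It was at 177, 239 and 216 CPM in KO noCys and at 230.1, 202, 232 and 239.7 CPM in WT noCys, a difference of -0.10 (SE 0.14, adjusted p = 0.636). Against KO CTR it differed by -0.35 (SE 0.14, adjusted p = 0.0956). *Gm13613* and *Gm13614* overlap *Abcb11*, and without the strand setting it is not known how reads in the overlap were assigned.

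The receptors that control the pathway did not pass the test either. *Nr1h4* (chr10:89454234-89533585, minus strand), encoding the bile acid receptor FXR, was at 129, 187 and 173 CPM in KO noCys and at 147, 121, 139 and 141 CPM in WT noCys. KO noCys 1 lay within the WT noCys range and the other KO noCys libraries above it. *Nr1h4* was the one member with a value above 0 in that comparison (0.25, SE 0.15, adjusted p = 0.214), and it passed with library totals (0.48, adjusted p = 0.0442). *Nr0b2* (chr4:133553376-133556536, plus strand), encoding the repressor SHP, was at 68.8, 71.7 and 39.4 CPM in KO noCys and at 51.8, 101.1, 78.3 and 92.6 CPM in WT noCys. The groups overlapped and differed by -0.43 (SE 0.45, adjusted p = 0.498). In WT CTR it gave 5.61, 71.0 and 47.4 CPM, so that the first library stood below all others of the series. A fall of *Cyp7a1* and *Cyp8b1* in KO noCys was thus not accompanied by a called change in *Nr0b2*, at an SE of 0.45 on the log2 scale.

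The depleted diets changed no member past the threshold in the remaining comparisons. Removing cysteine in WT gave 0 called by edgeR's test, 2 at an unadjusted p under 0.05 (*Cyp27a1* and *Cyp8b1*) and 0 by DESeq2, where 0.661% of all genes were called. In 4 members the WT noCys and WT CTR libraries did not overlap, as in 16.4% of all genes: *Cyp8b1* and *Abcb11* were lower in every library and *Cyp27a1* and *Slc27a5* were higher in every library. Removing tryptophan gave 0 called in WT (3.19% of all genes called), with 1 member at an unadjusted p under 0.05 and 1 by DESeq2, both *Cyp8b1*. In KO it gave 0 called (1.87% of all genes called), 3 at an unadjusted p under 0.05 (*Cyp7a1*, *Cyp8b1* and *Slc10a1*) and 1 by DESeq2 (*Cyp8b1*). In 2 members, *Cyp7a1* and *Cyp8b1*, every KO noTrp library lay below every KO CTR library, against 3.15% of all genes. *Slc10a1* was at -0.36 (SE 0.15, adjusted p = 0.219) in that comparison.

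Further genes of the pathway were taken from lists of its known members. Of 13 other transporters of bile acids, bile lipids or their conjugates, 11 could be tested in KO noCys against WT noCys, and 3 were called higher, 2 lower and 6 not called, beside 14.8% of all genes higher and 13.4% lower. *Abcc3* and *Abcc4*, export pumps of the basolateral membrane that carry bile acid conjugates back to blood, were both higher. *Slco1a4*, an uptake transporter of the same membrane, was lower, as was *Slco1b2*, which is named here after its values were seen.

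*Abcc3* (MRP3) was at 501, 471 and 414 CPM in KO noCys, at 179.9, 171, 154 and 165 CPM in WT noCys and at 186, 211, 219.8 and 191 CPM in KO CTR. The KO noCys libraries were above all other libraries of the series. The fold change was 1.46 (SE 0.11, adjusted p = 3.83e-08) against WT noCys and 1.19 (SE 0.11, adjusted p = 9.01e-07) against KO CTR. KO noTrp, with 262 to 313 CPM, was also above KO CTR in every library, by 0.54 (SE 0.10, adjusted p = 0.007), and KO noCys was above KO noTrp by 0.65 (SE 0.11, adjusted p = 0.000572). Between the genotypes, the response to cysteine removal differed by 1.44 (SE 0.16, adjusted p = 2.63e-05).

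*Abcc4* (MRP4) was lower in level but changed more. It was at 8.46, 14.2 and 10.5 CPM in KO noCys, and all 18 other libraries lay between 1.27 and 3.31 CPM. The fold change was 2.83 (SE 0.27, adjusted p = 6.22e-07) against WT noCys, and the effect of removing cysteine differed between genotypes by 2.70 (SE 0.41, adjusted p = 0.000623). KO noTrp differed from KO CTR by 0.20 (SE 0.25, adjusted p = 0.736).

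*Slco1a4* (OATP1A4) went the other way, at 43.8, 28.8 and 32.0 CPM in KO noCys against 112, 73.8, 93.3 and 64.5 CPM in WT noCys. All 3 libraries were below all 18 others. It differed by -1.31 (SE 0.25, adjusted p = 0.000766), and by -1.35 (SE 0.25, adjusted p = 0.00094) from KO CTR, and the genotype difference in the effect of removing cysteine was -1.42 (SE 0.35, adjusted p = 0.0181). *Abcb4*, the canalicular phospholipid flippase, was at 285, 382 and 304 CPM in KO noCys against 203 to 261 CPM in WT noCys, a fold change of 0.56 (SE 0.17, adjusted p = 0.0173). For *Abcb4* the genotype difference in the effect of removing cysteine did not pass (0.56, SE 0.24, adjusted p = 0.159). Of these 4 named transporters, *Abcb4* alone lost its call when a library was left out, KO noCys 3 (0.42).

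**Figure D5:**
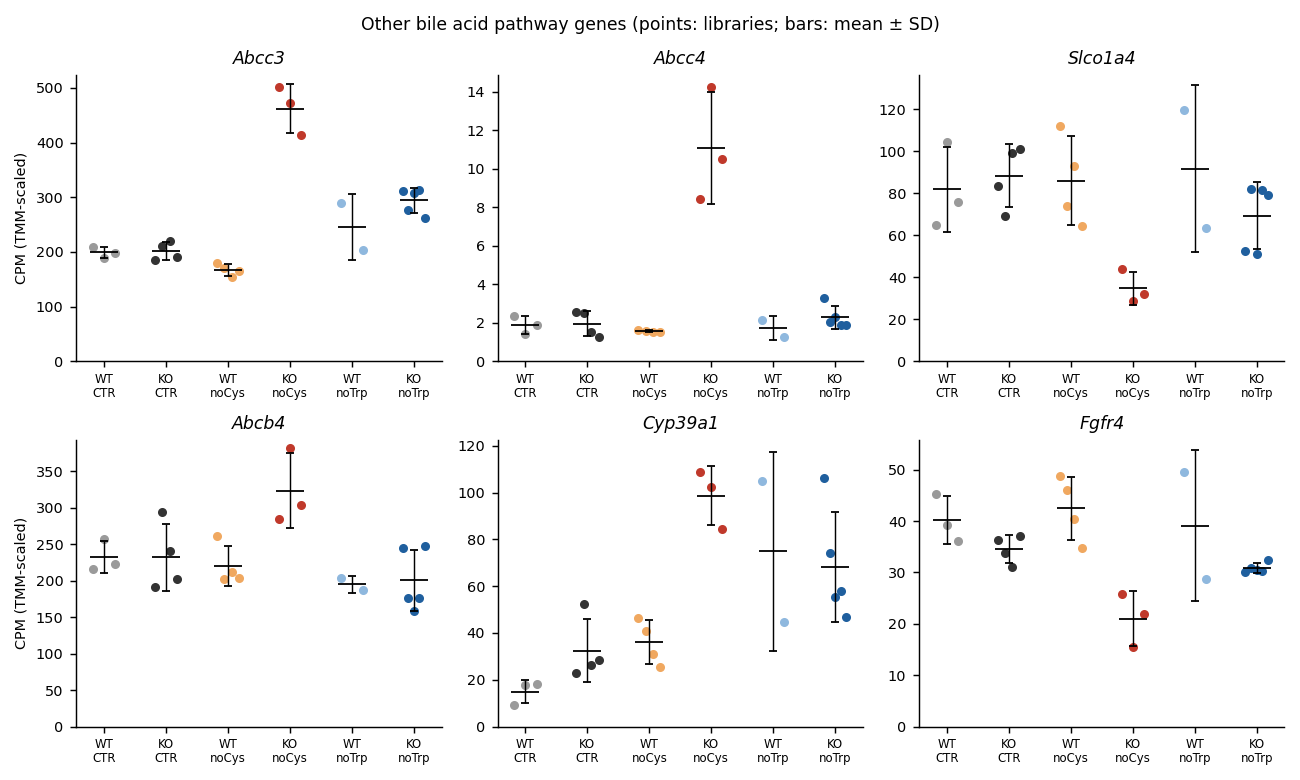
CPM (y axis, TMM-scaled, from 0) of 6 further genes of the pathway in the 21 libraries by group, with points for libraries and bars for mean and SD (n as in the plot of the 10 genes). *Abcc3* (414 to 501 CPM) and *Abcc4* (8.46 to 14.2 CPM) are highest and *Slco1a4* (28.8 to 43.8 CPM) and *Fgfr4* (15.4 to 25.8 CPM) lowest in KO noCys, while *Cyp39a1* is lowest in WT CTR (9.21 to 18.01 CPM).

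Of 16 other enzymes of bile acid synthesis, 15 were tested in KO noCys against WT noCys, with 2 called higher and 3 lower, beside 14.8% and 13.4% of all genes. *Cyp39a1*, an oxysterol 7α-hydroxylase, was higher by 1.45 (SE 0.32, adjusted p = 0.00226), at 109, 102 and 84.5 CPM against 25.4 to 46.5 CPM. *Cyp39a1* was also higher in KO noCys than in KO CTR by 1.59 (SE 0.32, adjusted p = 0.00175), and its genotype effect without cysteine differed from that without tryptophan by 1.59 (SE 0.47, adjusted p = 0.0473). Removing tryptophan in WT raised *Cyp39a1* by 2.32 (SE 0.40, adjusted p = 0.00506). WT noTrp had only 2 libraries, at 104.8 and 44.9 CPM, and the contrast between the cysteine-free and tryptophan-free diets uses them too. KO noCys and KO noTrp differed by 0.53 (SE 0.30, adjusted p = 0.257), and KO and WT differed in the effect of removing cysteine by 0.33 (SE 0.47, adjusted p = 0.73). *Acox2*, the peroxisomal oxidase of the bile acid side chain, was higher by 0.88 (SE 0.16, adjusted p = 0.000377), at 230.4, 266 and 189.9 CPM against 102 to 142 CPM. *Acnat2* (-0.86, SE 0.32, adjusted p = 0.0478), an acyltransferase of the *Baat* family, and *Akr1d1* (-0.73, SE 0.27, adjusted p = 0.045), the steroid 5β-reductase, were lower, and these 2 calls held in 2 and 1 of the 7 refits without a library. The third lower gene was *Scp2*, named here after its values were seen.

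Of 16 regulators of the pathway, all tested, 1 was called in KO noCys against WT noCys, where 28.2% of all genes were: *Fgfr4*, the hepatic receptor for the gut hormone FGF15, whose signal represses *Cyp7a1*. *Fgfr4* was at 25.8, 15.4 and 21.9 CPM in KO noCys and at 48.7, 46.0, 40.5 and 34.8 CPM in WT noCys, and its 3 KO noCys libraries were the lowest of the series. The difference was -1.03 (SE 0.17, adjusted p = 0.000216), and against KO CTR it was -0.73 (SE 0.17, adjusted p = 0.00513). KO and WT differed in the effect of removing cysteine by -0.81 (SE 0.24, adjusted p = 0.0438). *Fgf15* itself, which is made in the ileum, had 0 counts in all 21 libraries. Against KO CTR 5 of the 16 regulators were called, beside 20.2% of all genes. Among them *Zfp36l1* (0.47, adjusted p = 0.0321) was higher, and *Onecut1* (-1.95, adjusted p = 0.0158) and *Rxra* (-0.28, adjusted p = 0.0311) were lower, all 3 named after their values were seen.

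Taurine and coenzyme A are the small molecules used to conjugate bile acids, and both are made from cysteine. Of 9 genes that supply them, all tested, 2 were higher and 3 lower in KO noCys than in WT noCys, beside the same 14.8% and 13.4% of all genes. *Cdo1*, the cysteine dioxygenase that starts taurine synthesis, was at -0.50 (SE 0.14, adjusted p = 0.00912), and this call was lost without KO noCys 3 or KO noCys 4. *Slc6a6*, the taurine transporter, fell to 35.5 ± 3.54 CPM (SD, n = 3) from 57.4 ± 6.42 CPM (n = 4), by 0.69 (SE 0.16, adjusted p = 0.00346). In the synthesis of coenzyme A the early kinase *Pank3* was lower (-0.66, SE 0.14, adjusted p = 0.0018), and *Ppcdc*, a decarboxylase that acts after cysteine has been joined, was higher (0.96, SE 0.14, adjusted p = 5.51e-05), together with *Ppcs*, named here after its values were seen. *Csad*, the next enzyme of taurine synthesis, was at -0.13 (SE 0.40, adjusted p = 0.828) and is named here after its values were seen.

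*Cyp7a1* and the transcription factors that drive it follow the daily clock, so clock genes were examined beside it. Of 16 clock genes, 15 were tested, and 5 were lower in KO noCys than in WT noCys, with none higher, where 13.4% of all genes were called lower: *Cry1* (-0.75, SE 0.24, adjusted p = 0.0254), *Hlf* (-0.74, SE 0.13, adjusted p = 0.000398), *Per1* (-0.52, SE 0.13, adjusted p = 0.0048), *Nr1d2* (-0.41, SE 0.11, adjusted p = 0.0117) and *Tef*, the last named after its values were seen. With library totals *Cry1*, *Per1* and *Nr1d2* were not called. *Cry1* was also lost without WT noCys 4, KO noCys 1 or KO noCys 3, and *Nr1d2* without KO noCys 3. Against KO CTR 1 clock gene was called, *Hlf* (-0.44, adjusted p = 0.023), and in the test of the genotype difference in the effect of removing cysteine none was. The summed level of the 16 clock genes was 761 to 815 CPM in KO noCys and 914 to 1037 CPM in WT noCys. It was 841 to 906 CPM in KO CTR and 686 to 955 CPM in KO noTrp. The part of the clock genes in the result for *Cyp7a1* was not tested.

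Some markers of cell types were called in the same comparison, in which 28.2% of all genes were called. Of 8 hepatocyte markers 3 were lower in KO noCys than in WT noCys, *Serpina1c* (-1.88, SE 0.31, adjusted p = 0.000211), *Alb* (-1.15, SE 0.23, adjusted p = 0.00108) and *Ttr* (-1.03, SE 0.12, adjusted p = 5.4e-06), and none was higher. The summed level of all 8 was 42869 to 71663 CPM in KO noCys and 95796 to 110496 CPM in WT noCys, without overlap. *Alb* made up the largest part of these sums, at 21622 to 44753.5 CPM in KO noCys and 63089 to 73113 CPM in WT noCys. The other 5 markers were not called. Of these, *Apoa1* was lower in every KO noCys library, while *Apob*, *Tat*, *Cps1* and *Asgr1* (937 to 1036 against 821 to 994 CPM) overlapped. The contrasts in which *Slc27a5* was called held hepatocyte marker calls too, all lower. Against KO CTR, whose sums were 74551 to 84342 CPM, 3 of the 8 were called: *Ttr* (-0.92, adjusted p = 2.62e-05), *Serpina1c* (-1.61, adjusted p = 0.00114) and *Alb* (-0.67, adjusted p = 0.0457). *Ttr* and *Serpina1c* were also called in KO noCys against KO noTrp (-0.47 and -0.99), in the genotype difference in the effect of removing cysteine (-0.93 and -1.71) and in the genotype effect without cysteine against without tryptophan (-0.99 and -1.52). Of 8 markers of bile duct and gallbladder cells, 6 were tested and 2 were lower (*Spp1* and *Sox9*), with sums of 16.9 to 18.9 CPM in KO noCys and 34.8 to 59.0 CPM in WT noCys. Of 10 markers of Kupffer cells and leukocytes 2 of the 8 tested were lower (*Itgam* and *Cd5l*), with sums of 99.6 to 114.5 and 112.6 to 183.7 CPM, and of 10 endothelial and stellate markers 1 was lower (*Pecam1*), with sums of 293 to 348 and 351 to 454 CPM. Of 8 gut markers 3 were tested and 1 was lower, *Slc10a2* (-3.19), with *Fgf15* and *Cdx2* at 0 in every library. With a library left out, *Sox9* was called in 3, *Itgam* in 2, *Cd5l* in 2 and *Pecam1* in 4 of 7 refits, and none of these 4 was called with library totals. The part of cell composition in the results for the 10 genes was not tested.

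For *Cyp7a1*, *Cyp8b1* and *Cyp7b1*, the genes with the most similar profiles were found by the smallest root mean square difference between log2 CPM values centred over the 21 libraries. Near to *Cyp7a1* were the haemoglobin gene *Hba-a2* (0.55) and *Tesmin* (0.56), against a spread of *Cyp7a1* about its own mean of 0.91. Nearest to *Cyp8b1* (spread 0.86) were *Aldoc* (0.46), *Stard4* (0.48), a cholesterol carrier protein, and *Fam129b* (0.50). Nearest to *Cyp7b1* (spread 0.59) were *Wnk4* (0.38), *Rsph9* (0.42) and *Cpt1c* (0.45).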

How the data were processed

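Liver RNA was extracted with TRIzol, poly(A) RNA was selected, and libraries were made and sequenced by the authors. Per the submitters' processing notes and the study's methods, reads were aligned to GRCm38 with HISAT2 2.1.0 and counted with HTSeq 0.11.0. The deposited values are raw counts per gene, with no normalization. Which annotation HTSeq used, and whether it used strand, is not given in the sources used here. 1 table column that no sample title matched was left unused. Groups and replicate numbers came from the sample titles. Of 46078 identifiers, 45143 were found in GENCODE M21, which gave symbols and coordinates, and the other 935 held 0.0715% of the counts.

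The software was R 4.3.3 with edgeR 4.0.16. Low genes were removed with filterByExpr (minimum count 10, minimum total 15). TMM factors lay between 0.883 and 1.14. All 21 libraries entered 1 model with a mean for each of the 6 groups. Each of 10 comparisons was tested by the quasi-likelihood F-test (two-sided), with Benjamini-Hochberg adjustment over 14370 genes and a threshold of 0.05. CPM are counts divided by the scaled library size (edgeR, cpm), and CPM per kb are these divided by the summed length of the exons of the gene. The fits were tested on simulated data. Alternatives were DESeq2 1.42.0, RLE size factors, library totals, no filter (26504 genes), replicate number as a block, a fit of the compared groups only, and each library left out in turn. In the model of all 21 libraries, each p-value sets a difference between groups against the spread within groups, estimated over all 6 groups.

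The 10 genes, the gene lists and the marker lists were chosen with earlier results of these data known. The text names the 10 genes in every comparison, *Cth* as a check of the knockout, from each list of further genes the 4 at most with the largest fold change among those called in KO noCys against WT noCys, the called marker genes, and for 3 members the 3 genes of nearest profile, of which 1 is not reported here. Other genes are marked as named after their values were seen. Promoters are from RefSeq (GRCm38.p6), and the 50 bases after each start site were left out.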

Additional observations from a re-analysis of the deposited data

Results flagged for a closer look

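*Slc27a5* was singled out in 3 contrasts because its response differed between groups. Removing cysteine lowered it in KO (-0.82 on the log2 scale, with every KO noCys library below every KO CTR library), while in WT every noCys library lay above every CTR library. The test of that difference gave -1.08 (SE 0.19, edgeR's quasi-likelihood test, adjusted p = 0.00198). The difference between KO and WT also differed between the cysteine-free and the tryptophan-free diet, by -0.94 (SE 0.20, adjusted p = 0.00693). All of these contrasts use the 3 KO noCys libraries. A check for a single library far from the rest of its group, made in the 30 combinations of member and group with 4 to 5 libraries, found 0. It did not cover groups of 2 or 3, so neither KO noCys nor WT CTR was checked.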

How the results depend on the processing

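Over 1595 refits of single genes (the 10 members and *Cth*, which had 7 of the changes), 1545 kept their side of the threshold, 30 newly passed it, 20 no longer passed it, and no called value changed sign, while 118 uncalled values did. *Slc27a5* kept all its calls in every refit. With the replicate number as a block, KO noCys against WT noCys gave 3 members (*Cyp27a1*, *Cyp7a1* and *Slc27a5*) in place of 5, and *Baat* (adjusted p = 0.0583) and *Cyp8b1* (adjusted p = 0.0540) were lost. Of 41 pairs with the same number in different groups, 9 had deviations correlated over 0.1 (r from -0.36 to 0.35). The median r was -0.03, beside 0.01 over the 140 other pairs. These correlations cannot show whether the numbers mark shared litters, cages or batches. Without a filter on low counts, 2 members were called in KO noTrp against KO CTR, 1 in WT noTrp against WT CTR, 2 in KO noCys against KO noTrp and 2 in the genotype effect without cysteine against without tryptophan, in place of 0, 0, 1 and 1. DESeq2 called 1, 1 and 2 in the first 3 of these and 2 in the genotype difference in the effect of removing cysteine. Fitting the compared groups only called 3 in the latter, 1 in KO noTrp against KO CTR and 1 in WT noCys against WT CTR. Library totals moved the share of calls that were higher from 52.5% to 80.0% in KO noCys against WT noCys, from 52.6% to 73.7% in KO noCys against KO CTR, from 51.5% to 68.3% in KO noCys against KO noTrp, from 53.2% to 78.0% in WT noTrp against WT CTR, from 41.6% to 55.5% in KO noTrp against KO CTR, from 21.7% to 36.6% in KO CTR against WT CTR and from 47.9% to 72.6% in the genotype difference. Over all genes DESeq2 called 122 in place of 46 in KO CTR against WT CTR, 117 in place of 28 in KO noTrp against WT noTrp, 606 in place of 269 in KO noTrp against KO CTR, 305 in place of 95 in WT noCys against WT CTR and 753 in place of 459 in WT noTrp against WT CTR. The cause of these changes was not tested.

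With each library left out, the number of members called was 1 to 5 in KO noCys against WT noCys, 2 to 4 in KO noCys against KO CTR, 0 to 1 in KO noTrp against KO CTR, 1 to 3 in KO noCys against KO noTrp, 1 to 3 in the genotype difference in the effect of removing cysteine, 1 to 2 in the genotype effect between the depleted diets, and 0 in the other 4. For KO noCys against WT noCys the count was 3 without WT noCys 1, 1 without WT noCys 2, and 2 without KO noCys 3 or KO noCys 4. Without KO noCys 1 it was 3 in KO noCys against KO noTrp, 3 in the genotype difference and 2 between the depleted diets, and without KO CTR 1 the genotype difference called 2. Without KO noTrp 1, KO noTrp against KO CTR called 1, *Cyp7a1* (-1.56). Over all genes, leaving out KO noCys 3 moved the share called from 7.44% to 3.01% in the genotype difference and from 6.35% to 2.91% between the depleted diets. In WT noCys against WT CTR it fell from 0.661% to between 0.00698% (without WT CTR 3) and 0.371% (without WT CTR 2), and with the compared groups only it was 3.08%. In KO CTR against WT CTR it fell from 0.32% to 0.0629% without KO CTR 2, 0.0698% without WT CTR 3, 0.105% without KO CTR 3, 0.112% without KO CTR 1 and 0.153% without KO CTR 4. In KO noTrp against KO CTR it moved from 1.87% to 0.735% without KO CTR 1, 0.976% without KO CTR 3, 0.986% without KO noTrp 3 and 3.12% without KO CTR 2. In KO noTrp against WT noTrp the share moved from 0.195% to 0.356% without KO noTrp 1 and to 0.0296% with the compared groups only. In WT noTrp against WT CTR it fell from 3.19% to 1.02%, 1.19% and 2.07% without WT CTR 3, 1 and 2. It was 1.33% there with the replicate block and 0.0226% with the compared groups only. Leaving out a WT noTrp library leaves 1 in that group, so those shares are not given. Groups of 2 to 5 libraries limit the precision: the SE on the log2 scale was 0.13 for *Slc27a5* but 0.45 for *Cyp7a1* and *Nr0b2* in KO noCys against WT noCys, and WT noTrp had 2 libraries.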

Other observations

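The 10 proteins differ in how much cysteine they contain. Counted as TGT and TGC codons in the longest coding sequence in GENCODE M21, cysteine made up 4.62% of the codons of *Nr0b2* (12 of 260), 3.07% of *Nr1h4* (15 of 488), 2.47% of *Slc27a5* (17 of 689), 2.21% of *Slc10a1* (8 of 362), 1.80% of *Cyp8b1* (9 of 500), 1.79% of *Cyp7a1* (9 of 503), 1.44% of *Abcb11* (19 of 1321), 1.19% of *Baat* (5 of 420), 0.986% of *Cyp7b1* (5 of 507) and 0.750% of *Cyp27a1* (4 of 533). The median over 12312 tested genes was 1.91%. No test was made of these shares against the fold changes.

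The bile acid importer of ileum and bile duct, *Slc10a2*, which was listed here as a gut marker, was at 0.677, 0.572 and 0.514 CPM in KO noCys, at 8.93, 3.27, 4.37 and 4.38 CPM in WT noCys and at 0.887 to 1.41 CPM in KO noTrp. Its level in KO CTR ranged from 1.57 to 8.42 CPM. WT noTrp gave 2.41 and 9.11 CPM. The call in KO noCys against WT noCys (-3.19, SE 0.66, adjusted p = 0.00126, edgeR) held without each of the 7 libraries, and the response to cysteine removal differed between genotypes by -2.92 (SE 0.84, adjusted p = 0.0383). *Slc10a2* was also called in KO noTrp against KO CTR (-2.16, adjusted p = 0.0266), and KO noCys against KO noTrp did not pass (-0.997, adjusted p = 0.364), nor did the genotype effect without cysteine against without tryptophan (-0.89, adjusted p = 0.627).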
